A study of Homo sapiens with 21 samples.

Results

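Messenger RNA of 31 genes of cholesterol and fatty acid synthesis was followed across 7 lines of SUM149PT, an established line of inflammatory breast cancer that lacks the estrogen and progesterone receptors. The genes were given as a list of symbols and make up 31 of the 60617 genes in each table (the list was chosen with earlier results of these data known). By role they were 18 enzymes of sterol synthesis, 5 genes of regulation and sterol transport, and 8 enzymes of fatty acid and lipid synthesis. The lines were Parental and 6 that the labels call clones, M1, M2, E, EM1, EM2 and EM3, each with 3 libraries (replicates 1 to 3, 21 libraries in all). Each of the 6 stands for 1 clone. The labels name no treatment and no engineered allele in any line. The series title speaks of an intermediate EMT state (EMT, the epithelial to mesenchymal transition), and E, EM and M are used as the labels give them. A difference between 2 of these lines is a difference between those lines and not between states. Whether the replicates of a line were grown as separate cultures is not stated in the labels. The p-values then rest on the spread of these libraries alone, which may be technical.

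As background, cells build cholesterol from acetyl-CoA through mevalonate, isoprenoid units, squalene and lanosterol, and fatty acids from the same acetyl-CoA through malonyl-CoA. The transcription factors SREBP-1 and SREBP-2, made from SREBF1 and SREBF2, drive the genes of both branches. SCAP carries their precursors out of the endoplasmic reticulum when membrane sterol is low, INSIG1 holds SCAP back when it is high, and INSIG1 is itself a target of the factors. On many of these promoters the SREBPs act beside NF-Y, which binds the CCAAT box.

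The stretches before the start sites of 6 genes that were high in EM1 and EM3 are shown because all 6 hold that box. They are RefSeq promoters on GRCh38.p14, reduced to a stretch of the 250 bases before the start that lies outside annotated exons, and written 5′ to 3′ on the strand of the gene. Capitals mark CCAAT on either strand (ATTGG where it lies on the other) and, in MSMO1, TCACTCCA, a match to TCACNCCA, the core of a sterol regulatory element. The HMGCS1 stretch is chr5:43313513-43313662 on the minus strand, MVD chr16:88663162-88663297 minus, MSMO1 chr4:165327419-165327622 plus, INSIG1 chr7:155297628-155297775 plus, STARD4 chr5:111512591-111512785 minus and SCD chr10:100346983-100347123 plus.
HMGCS1: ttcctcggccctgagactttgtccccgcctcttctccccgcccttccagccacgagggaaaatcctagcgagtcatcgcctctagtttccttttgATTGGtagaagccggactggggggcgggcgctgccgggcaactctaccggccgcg
MVD: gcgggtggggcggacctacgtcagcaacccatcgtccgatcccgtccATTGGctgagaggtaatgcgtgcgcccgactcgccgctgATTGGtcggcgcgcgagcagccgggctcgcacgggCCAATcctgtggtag
MSMO1: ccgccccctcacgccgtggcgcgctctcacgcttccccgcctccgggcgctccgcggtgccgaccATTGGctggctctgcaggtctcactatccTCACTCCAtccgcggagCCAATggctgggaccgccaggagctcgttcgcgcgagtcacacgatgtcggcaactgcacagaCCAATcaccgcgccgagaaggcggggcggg
INSIG1: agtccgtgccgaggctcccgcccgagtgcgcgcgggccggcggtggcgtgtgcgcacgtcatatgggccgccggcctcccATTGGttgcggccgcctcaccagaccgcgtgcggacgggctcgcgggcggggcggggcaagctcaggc
STARD4: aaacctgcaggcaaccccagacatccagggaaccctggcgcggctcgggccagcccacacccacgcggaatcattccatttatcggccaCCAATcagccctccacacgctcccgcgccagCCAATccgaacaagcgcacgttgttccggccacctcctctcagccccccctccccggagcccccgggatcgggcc
SCD: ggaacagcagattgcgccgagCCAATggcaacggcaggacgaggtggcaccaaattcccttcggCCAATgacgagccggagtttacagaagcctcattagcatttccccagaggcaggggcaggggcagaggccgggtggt

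Of the 31 genes 27 had an entry in the promoter table, with 38 promoters between them. ACAT2, FDFT1, SQLE and FASN had none. CCAAT was found on either strand in 15 of 20 promoters of sterol enzymes (75%), 3 of 5 of regulation and transport genes (60%) and 5 of 13 of fatty acid and lipid enzymes (38.5%), beside 32% of all 34788 promoters searched over the same 250 bases. Some genes have more than 1 promoter, and the windows of SC5D and of ACLY overlap and hold the same copies. Counted by gene, 19 of 27 held CCAAT (70.4%), and the share over all promoters was not taken by gene. MVK and NSDHL held 5 copies each and MSMO1 held 4. No copy was found for PMVK, CYP51A1, SREBF1, SCAP, ELOVL6, FADS1, FADS2 and LPIN1. TCACNCCA was found on either strand in 3 of the 38 promoters (7.89%), those of MVK, MSMO1 and SREBF2, beside 3.18% of all promoters. The same 3 also held CCAAT, and 1.05% of all promoters held both. The end of TCACNCCA and the start of CCAAT share the letters CCA, so the motifs can overlap, but in MVK, MSMO1 and SREBF2 their matches lay apart. A match is a description of the window.

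Levels are given as TPM, which scales the transcripts of every library to 1 fixed total and allows for gene length, and tests rest on counts. The libraries held 24602417 to 48149939 expected counts. The 18 libraries of the 6 named lines fell into 2 sets by mean effective length, the length over which RSEM spreads the reads of a gene. A short set of 8 libraries (1980 to 2034 bases) took in E with all 3 libraries, and of M1, M2, EM1, EM2 and EM3 replicate 3. A long set of 10 (2110 to 2223 bases) held replicates 1 and 2 of those 5 lines. Parental (2054 to 2114 bases) was put in neither. Calls against E that were gained or lost in a fit with a term for the set are therefore given from that fit too. That fit assumes the same set difference in every line, and E has no long library in which to see it. TPM and counts are also scaled differently: over all genes tested the median log2 difference of EM1 from E was 0.04 on counts and 0.22 on log2(TPM + 1), and on TPM it was 0.13 to 0.28 over the 6 lines compared with E. Of the genes called against E, the share that was higher was 54.9% on counts and 74.3% on TPM in EM1, 50% and 71.2% in EM2, 54% and 80% in EM3, 50% and 67.7% in M1, and 47.8% and 59.5% in M2.

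Markers were read as a check of the labels. ESR1 and PGR, the estrogen and progesterone receptors, summed to at most 2.29 TPM in any library. The 4 adipocyte and liver markers summed to 0.05 to 0.3 TPM and the 5 blood and endothelial markers to 0.65 to 5.92 TPM. The 5 epithelial markers summed to 5.85e+03 to 6.5e+03 TPM for E, 1.48e+03 to 3.05e+03 for EM1, 1.1e+03 to 2.46e+03 for EM2, 1.33e+03 to 2.8e+03 for EM3, 328 to 568 for M1, 518 to 759 for M2 and 1.42e+03 to 2.61e+03 for Parental. The 4 mesenchymal markers summed to 459 to 502 TPM for E, 899 to 1.42e+03 for EM1, 1.42e+03 to 2.21e+03 for EM2, 1.72e+03 to 2.05e+03 for EM3, 6.62e+03 to 7.33e+03 for M1, 2.03e+03 to 3.36e+03 for M2 and 345 to 909 for Parental. The sums mostly follow their largest members: in E, KRT8 held 4194 to 4914 TPM and FN1 437 to 478. EPCAM went the other way from the epithelial sum, with 164 to 171 TPM in E, 180 to 452 in EM1 and 260 to 444 in Parental. In M2, 3 epithelial markers (EPCAM, KRT19 and CDH1) stayed below 1 TPM in all libraries. These markers differ between lines along with the genes below, and their part in the results was not tested.

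EM1 and EM3 stood above the other lines in both branches. The mean of log2(TPM + 1) over the 18 sterol enzymes was 4.49 ± 0.11 for E, 6.63 ± 0.58 for EM1, 4.67 ± 0.28 for EM2, 6.48 ± 0.39 for EM3, 4.60 ± 0.15 for M1, 4.58 ± 0.55 for M2 and 4.81 ± 0.50 for Parental (SD, n = 3 libraries each). The lowest library of EM1 or EM3 stood at 6.04 and the highest of the other 15 at 5.36, in Parental replicate 3. Over the 8 fatty acid and lipid enzymes the means were 5.39 ± 0.11 for E, 6.78 ± 0.70 for EM1, 5.53 ± 0.23 for EM2, 6.83 ± 0.43 for EM3, 5.33 ± 0.41 for M1, 5.35 ± 0.25 for M2 and 5.52 ± 0.45 for Parental (SD, n = 3 libraries each). Here too the lowest library of EM1 or EM3 (6.20) was above the highest of the others (6.03, again Parental replicate 3). In bulk samples, a different share of cells with high synthesis and a different amount of RNA per cell cannot be told apart.

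**Figure D1:**
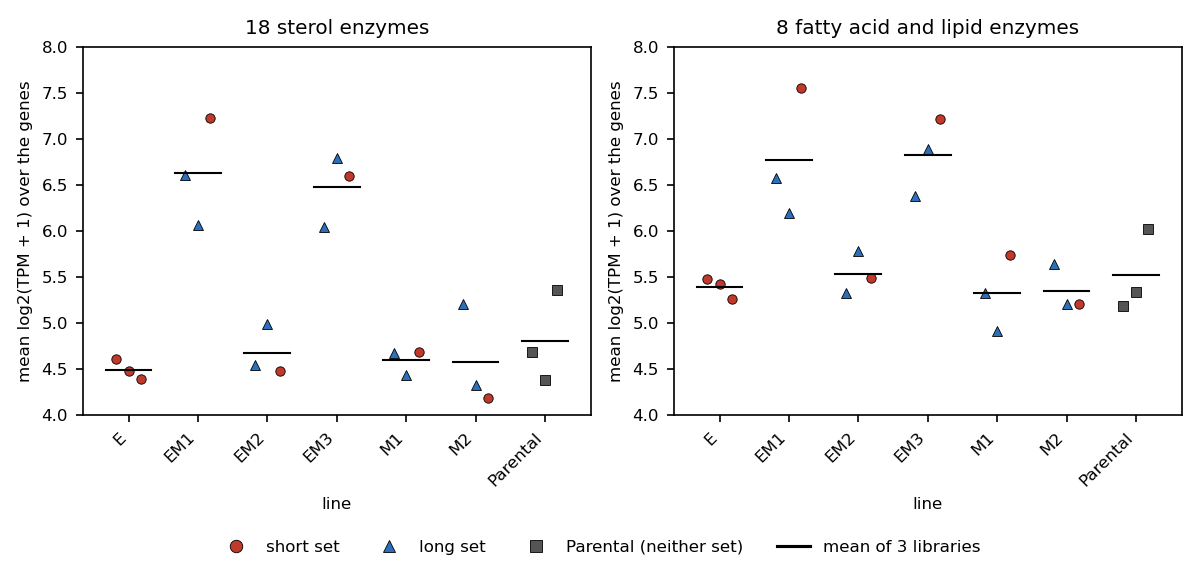
Mean log2(TPM + 1) over the 18 sterol enzymes and over the 8 fatty acid and lipid enzymes in each of 21 libraries, by line. Points are libraries, coloured and shaped by library set, and bars are means of 3 libraries. All 6 libraries of EM1 and EM3 lie above the 15 others in both panels, and replicate 3 of EM1 is the highest point in both (7.23 and 7.56).

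In plain TPM, the 18 sterol enzymes together took 717, 648 and 640 in the libraries of E, 3135, 1836 and 5069 in EM1, and 1881, 3473 and 3316 in EM3. They took 662, 859 and 678 TPM in EM2, 692, 611 and 786 in M1, 933, 529 and 446 in M2, and 755, 559 and 1158 in Parental. The 8 fatty acid and lipid enzymes took 524 to 580 TPM in E, 1076 to 3122 in EM1, 1284 to 2650 in EM3 and 370 to 804 in the other 4 lines.

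All 31 genes passed the low-count filter. A gene was called at a Benjamini-Hochberg (BH) adjusted p under 0.05. A test for any difference among the 7 lines called all 18 sterol enzymes, all 8 fatty acid and lipid enzymes and 4 of the 5 genes of regulation and transport, beside 62.5% of all genes tested. SREBF1 did not pass (edgeR, BH-adjusted p = 0.0727). EM1 and EM3 were the 2 lines with the highest mean TPM for 15 of 18 sterol enzymes, 3 of 5 genes of regulation and transport and 6 of 8 fatty acid and lipid enzymes. The share of all genes with this ranking was not taken. All 6 libraries of EM1 and EM3 were above the 15 others for 13, 2 and 3 genes of the same groups in that order, beside 0.762% of the 18632 genes tested.

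Against E, sterol enzymes were higher in EM1 for 13 of 18 genes and lower for none, beside 9.84% of all genes called higher, 8.09% lower and 17.9% called in all. Their median log2 fold change was 2.11, and that of all genes tested 0.04. In EM3 12 of 18 were higher and none lower, with a median of 1.76 beside 0.03 (9.36% of all genes called higher, 7.96% lower, 17.3% in all). Both comparisons use the same E libraries. With the library set as a term the counts were 16 and 15 of 18 higher and none lower, beside 9.99% and 10.9% of all genes called higher and 8.49% and 9.37% lower. Tested against a 2-fold difference, 10 sterol enzymes were called in EM1 and 6 in EM3. The share of all genes called in that test is not given here.

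HMGCS1 condenses acetyl-CoA and acetoacetyl-CoA to HMG-CoA. It measured 16.5, 11.2 and 8.65 TPM in E, 240.0, 112 and 368 in EM1 and 115, 262 and 206 in EM3. The other 12 libraries held 5.38 to 35.8 TPM, so EM1 and EM3 overlapped with no other line. Its log2 fold change against E was 4.23 (SE 0.56) in EM1 and 3.87 (SE 0.55) in EM3 (edgeR, BH-adjusted p = 4.65e-05 and 1.02e-04). ACAT2, the thiolase that makes acetoacetyl-CoA, measured 30.7, 25.1 and 23 TPM in E, 156, 104 and 219 in EM1 and 103, 163 and 135 in EM3. EM1 and EM3 lay above E without overlap, and the log2 fold changes were 2.24 (SE 0.41) and 1.92 (SE 0.41). Of its annotated exon bases 52.3% are shared with other genes, most with SOD2-OT1 on the opposite strand (1458 bases). The strand setting of the counting is not given in the sources used here, so reads of such neighbours cannot be told apart.

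Of the 3 steps from mevalonate to isopentenyl diphosphate, 2 were called higher in EM1 and EM3. Mevalonate kinase (MVK) measured 4.74, 5.11 and 3.58 TPM in E, 26, 16.3 and 36 in EM1 and 19.7, 36 and 27.1 in EM3, log2 fold changes of 2.02 (SE 0.43) and 2.04 (SE 0.43). MVD, the decarboxylase that makes isopentenyl diphosphate, measured 18.6 to 20.1 TPM in E, 59.4 to 258 in EM1 and 65.3 to 154 in EM3, log2 fold changes of 2.55 (SE 0.49) and 2.26 (SE 0.48). PMVK, phosphomevalonate kinase, acts between these 2 enzymes and was not called. It measured 10.2, 11.9 and 10.5 TPM in E, 9.33, 9.32 and 11.4 in EM1 and 12.3, 12.1 and 11.2 in EM3. Its log2 fold changes were -0.45 (SE 0.24) and -0.29 (SE 0.24), with overlapping libraries (edgeR, BH-adjusted p = 0.21 and 0.432).

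IDI1, the isomerase that makes dimethylallyl diphosphate, had the widest range of the sterol enzymes, its highest line mean 26.4 times its lowest. It measured 11.5, 9.45 and 9.27 TPM in E, 382, 174 and 241 in EM1 and 168, 377 and 155 in EM3. The log2 fold change against E was 4.34 (SE 0.51) in EM1 and 4.02 (SE 0.50) in EM3 (edgeR, BH-adjusted p = 1.5e-05 and 2.87e-05). E had the lowest mean of the 7 lines, and IDI1 was also higher than in E in EM2 (log2 fold change 1.72, SE 0.46), M1 (1.75, SE 0.46) and Parental (2.15, SE 0.46). The Parental libraries held 35, 23.3 and 111 TPM, with replicate 3 far above the other two.

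The next 2 enzymes lead to squalene. FDFT1, squalene synthase, measured 89.2, 81.9 and 83.2 TPM in E, 382, 225 and 1083 in EM1 and 249, 488 and 745 in EM3, log2 fold changes of 2.49 (SE 0.54) and 2.23 (SE 0.53). FDPS, which makes farnesyl diphosphate, measured 149, 132 and 137 TPM in E and 306, 211 and 914 in EM1, a log2 fold change of 1.52 (SE 0.43). In both genes replicate 3 of EM1 stood far above replicates 1 and 2. The call of FDPS in EM1 (edgeR, BH-adjusted p = 0.0201) was lost without EM1 replicate 3 and without each single library of E (up to 0.232). In EM3 FDPS measured 235, 378 and 539 TPM and did not pass (log2 fold change 1.07, SE 0.42; edgeR, BH-adjusted p = 0.0892), while it passed with the library set as a term (1.51, SE 0.38; edgeR, BH-adjusted p = 0.0108) and on TPM (limma, BH-adjusted p = 0.0211).

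SQLE, the squalene epoxidase and a slow step of the pathway, measured 13.8, 11.7 and 11.4 TPM in E, 179.9, 94.1 and 147 in EM1 and 92.2, 162 and 98.2 in EM3. EM1 and EM3 lay above E without overlap, with log2 fold changes of 3.05 (SE 0.29) and 2.72 (SE 0.29) (edgeR, BH-adjusted p = 1.82e-06 and 5.09e-06). LSS, which closes squalene epoxide to lanosterol, measured 8.83 to 10.2 TPM in E, 19 to 57 in EM1 and 22.4 to 45.9 in EM3. Its log2 fold changes of 1.52 (SE 0.40) and 1.51 (SE 0.40) lost their call without E replicate 1, without E replicate 3, and without replicate 3 of the line compared (edgeR, BH-adjusted p of up to 0.108 in EM1 and 0.0748 in EM3).

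Of the 8 enzymes that turn lanosterol into cholesterol, 4 were higher in EM1 and EM3 (MSMO1, SC5D, CYP51A1 and HSD17B7) and 4 did not pass. MSMO1, which oxidises methyl groups of the ring, measured 35.3, 30.9 and 27.9 TPM in E, 688, 239 and 454 in EM1 and 251, 699 and 292 in EM3, log2 fold changes of 3.51 (SE 0.59) and 3.29 (SE 0.58). SC5D, a sterol desaturase, measured 4.38, 4 and 3.4 TPM in E, 55.9, 50.1 and 35.6 in EM1 and 26.3, 45.1 and 14.7 in EM3, log2 fold changes of 2.86 (SE 0.40) and 2.21 (SE 0.39). Neither gene overlapped with E in these lines. CYP51A1, the lanosterol demethylase, measured 41.5 to 43 TPM in E, 112 to 181 in EM1 and 104 to 136 in EM3, log2 fold changes of 1.63 (SE 0.21) and 1.28 (SE 0.21). Of its exon bases 83.2% are shared with other genes, most with AC000120.2 on the same strand (2844 bases), so its counts could have been split. HSD17B7, a keto-reductase of the same steps, measured 5.42 to 7.6 TPM in E, 16.2 to 68.2 in EM1 and 10.8 to 29.9 in EM3, and its call in EM3 was lost without E replicate 3 or EM3 replicate 2 (edgeR, BH-adjusted p of up to 0.0659).

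The 4 others did not pass in the fit of all libraries, and 3 of them (DHCR7, EBP and NSDHL) passed in EM1 with the set as a term. DHCR7, the last reductase, measured 124, 117 and 114 TPM in E, 188, 192 and 538 in EM1 and 173, 246 and 378 in EM3. All 6 libraries were above those of E, and the log2 fold changes of 1.12 (SE 0.49) and 0.83 (SE 0.49) did not pass (edgeR, BH-adjusted p = 0.12 and 0.255). With the set as a term they were 1.62 (SE 0.31) and 1.47 (SE 0.31) and passed (edgeR, BH-adjusted p = 0.00163 and 0.00353). EBP, a sterol isomerase, went the same way, with 76.3 to 90.3 TPM in E, 126 to 331 in EM1 and 154 to 253 in EM3. NSDHL, which takes part in removing the oxidised methyl groups, measured 42.9 to 46.9 TPM in E, 69 to 108 in EM1 and 73 to 90.1 in EM3. With the set as a term it passed in EM1 and missed the threshold in EM3 (edgeR, BH-adjusted p = 0.0411 and 0.0564), and on TPM it passed in both (limma, BH-adjusted p = 0.0314 and 0.0295). EBP too passed on TPM (limma, BH-adjusted p = 0.0125 and 0.00722), and DHCR7 did not. TM7SF2, a sterol reductase, passed neither with nor without the set term, with 10.1 to 11.5 TPM in E, 7.88 to 16.9 in EM1 and 5.72 to 12 in EM3.

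**Figure D2:**
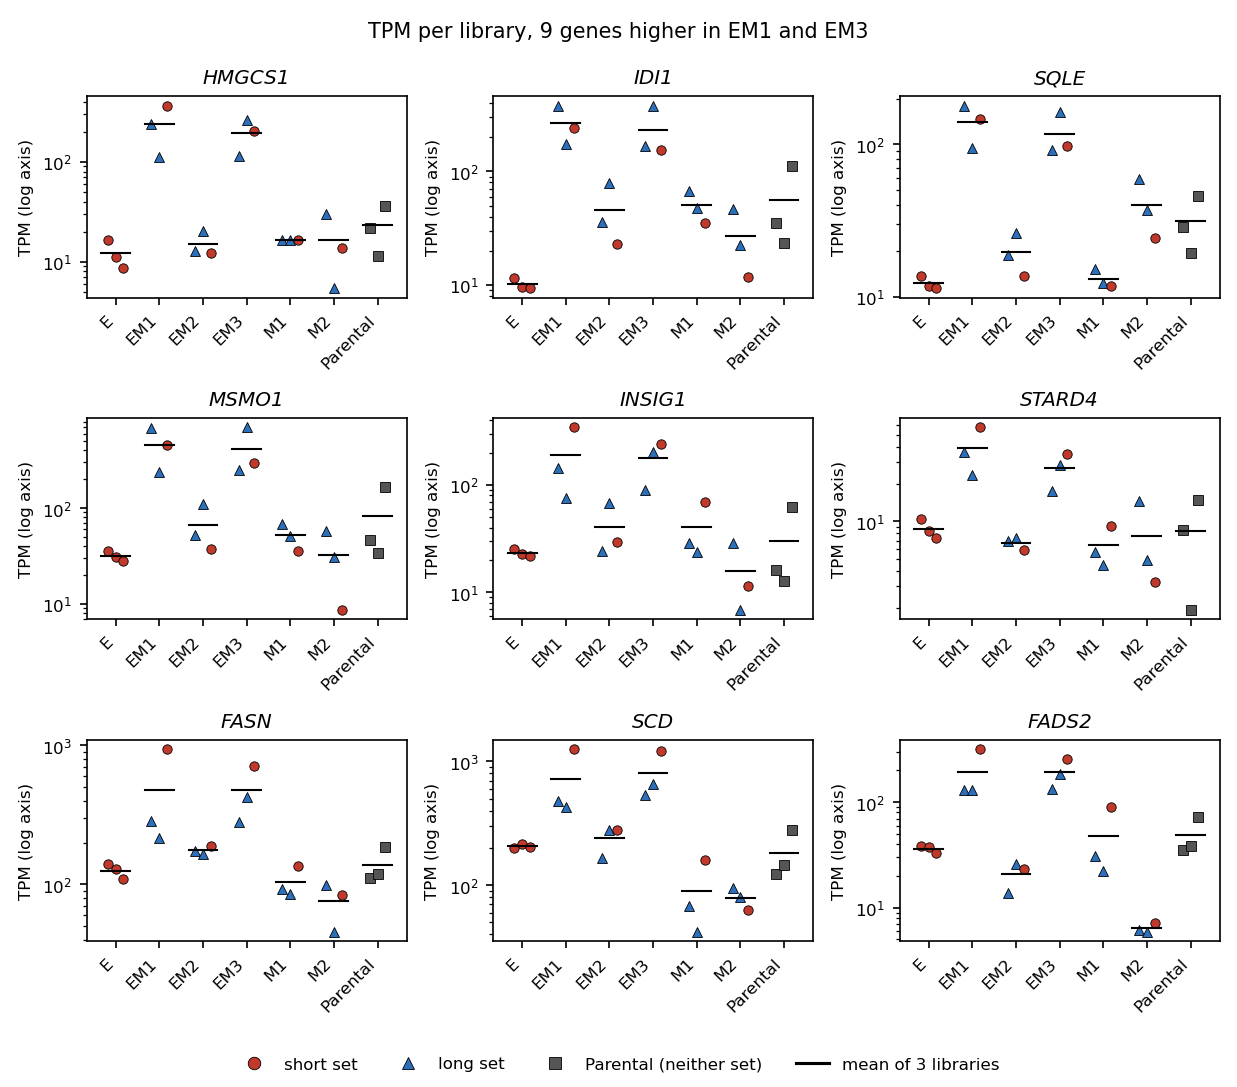
TPM (log axis) of 9 genes in each of the 21 libraries, by line. Points are libraries, coloured and shaped by library set, and bars are means of 3 libraries. In each of the 9 genes all 6 libraries of EM1 and EM3 lie above the 15 others. In FASN, SCD and FADS2 replicate 3 is the highest library of both lines.

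Of the 5 genes of regulation and transport, INSIG1 and STARD4 were higher in EM1 and EM3. INSIG1 measured 25.2, 22.6 and 21.8 TPM in E, 145, 74.9 and 344 in EM1 and 89.9, 200.4 and 241 in EM3. Its lines did not overlap with E, and the log2 fold changes were 3.10 (SE 0.65) and 3.00 (SE 0.65) (edgeR, BH-adjusted p = 0.00297 and 0.00354). STARD4, which moves cholesterol between membranes, measured 7.34 to 10.4 TPM in E, 23.5 to 57.2 in EM1 and 17.5 to 34.6 in EM3, log2 fold changes of 2.23 (SE 0.54) and 1.70 (SE 0.53). Its call in EM3 was lost without each single library of E or EM3 (edgeR, BH-adjusted p of up to 0.119).

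SREBF2, the gene of SREBP-2, measured 36, 42 and 38.6 TPM in E, 66.7, 62.7 and 106 in EM1 and 66.2, 84.4 and 102 in EM3. The libraries did not overlap, yet the log2 fold changes of 0.60 (SE 0.38) and 0.60 (SE 0.38) did not pass (edgeR, BH-adjusted p = 0.285 and 0.288). In the fit with the set term they were 1.10 (SE 0.20) and 1.15 (SE 0.20) and passed (edgeR, BH-adjusted p = 0.00122 and 8.66e-04), as they did on TPM (0.96 and 1.08; limma, BH-adjusted p = 0.0312 and 0.0152). SREBF1 measured 34, 39.1 and 35.8 TPM in E, 31, 19.5 and 65.7 in EM1 and 22.3, 40.7 and 61.5 in EM3, a spread that reached below and above E, and it passed in neither fit. SCAP measured 18.8 to 21.1 TPM in E and 15.2 to 18.9 in EM1, which overlapped. It was called lower in EM1 (log2 fold change -0.69, SE 0.22; edgeR, BH-adjusted p = 0.0386), and the call was lost on TPM (-0.21; limma, BH-adjusted p = 0.373), in the fit with the set term (-0.40; edgeR, BH-adjusted p = 0.102) and without each single library of E, EM1 replicate 1 or EM1 replicate 2.

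Fatty acid and lipid enzymes were higher in EM1 for 4 of 8 genes (ACLY, ACACA, ELOVL6 and FADS2) and in EM3 for 5 of 8 (these 4 and SCD), and lower for none, beside 9.84% and 9.36% of all genes called higher. Their median log2 fold changes were 1.33 in EM1 and 1.15 in EM3, and those of all genes tested 0.04 and 0.03. In the fit with the set term 7 of 8 were higher in each, beside 9.99% and 10.9% of all genes, and LPIN1 did not pass in either. Against a 2-fold difference none was called, in EM1 or EM3. Without EM1 replicate 3 the count in EM1 was 2 of 8. In EM3 it was 1 of 8 without E replicate 1, E replicate 3 or EM3 replicate 3, 2 without E replicate 2 or EM3 replicate 2, and 3 without EM2 replicate 2, Parental replicate 2 or Parental replicate 3.

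ACLY, which makes cytosolic acetyl-CoA from citrate, measured 86.1, 72.1 and 69.5 TPM in E, 191, 138 and 264 in EM1 and 151, 204 and 193 in EM3, log2 fold changes of 0.95 (SE 0.26) and 0.82 (SE 0.26). ACACA, the carboxylase that makes malonyl-CoA, measured 11.9 to 16 TPM in E, 25.5 to 61.8 in EM1 and 28.6 to 36.3 in EM3, log2 fold changes of 1.14 (SE 0.26) and 0.85 (SE 0.26). Both genes were above E in all 6 libraries, but the ACLY call in EM1 was lost without EM1 replicate 3 or each single library of E (edgeR, BH-adjusted p of up to 0.123). In EM3 the ACACA call was lost without EM3 replicate 2, EM3 replicate 3 or each single library of E (up to 0.12), and that of ACLY in 11 of 21 such fits (up to 0.128). FASN, which builds palmitate from malonyl-CoA, measured 140.2, 128 and 109 TPM in E, 286, 216 and 940.0 in EM1 and 282, 428 and 709 in EM3. All 6 were above the other 15 libraries (45.5 to 187 TPM), and with this spread the log2 fold changes of 1.57 (SE 0.56) and 1.44 (SE 0.56) did not pass (edgeR, BH-adjusted p = 0.0603 and 0.0834). With the set as a term they were 2.06 (SE 0.34) and 2.13 (SE 0.35) and passed (edgeR, BH-adjusted p = 6.48e-04 and 6.11e-04). They passed as well on TPM (limma, BH-adjusted p = 0.0175 and 0.00808) and with the replicate number as a block (edgeR, BH-adjusted p = 0.0398 and 0.0331).

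SCD, which makes oleate from stearate, had the highest mean TPM of the 31 genes in E, EM1, EM2, EM3 and Parental. It measured 199, 216 and 203 TPM in E, 478, 426 and 1259 in EM1 and 538, 651 and 1206 in EM3, with replicate 3 the highest in both. The log2 fold change in EM1 was 1.51 (SE 0.52) and did not pass (edgeR, BH-adjusted p = 0.0524; 5.29e-04 with the set as a term and 0.0155 with the block), and that in EM3 was 1.58 (SE 0.52) and passed (edgeR, BH-adjusted p = 0.0445), a call lost in 10 of the 21 fits that each left out 1 library (up to 0.192). The difference of EM3 from EM1 itself did not pass (0.07, SE 0.51). FADS2, which starts the desaturation of polyunsaturated fatty acids, measured 38.5, 37.5 and 32.7 TPM in E, 129, 131 and 319 in EM1 and 133, 187 and 255 in EM3, log2 fold changes of 2.14 (SE 0.54) and 2.05 (SE 0.54). Its call was lost in EM1 without EM1 replicate 3 and in EM3 without E replicate 1, E replicate 3 or EM3 replicate 3 (edgeR, BH-adjusted p of up to 0.06 and 0.0566). FADS1, its neighbour on chromosome 11, measured 80 to 81.4 TPM in E, 115 to 211 in EM1 and 123 to 196 in EM3. Its log2 fold changes of 0.71 (SE 0.27) and 0.71 (SE 0.27) did not pass (edgeR, BH-adjusted p = 0.0779 and 0.0788). They passed with the set as a term, at 0.99 (SE 0.22) and 1.01 (SE 0.22), with the replicate number as a block (edgeR, BH-adjusted p = 0.0349 and 0.0319) and on TPM (limma, BH-adjusted p = 0.0454 and 0.0285). Exons of FADS1 and FADS2 overlap over 490 bases on opposite strands.

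ELOVL6, which lengthens palmitate, measured 5.89 to 9.11 TPM in E, 14.5 to 28.8 in EM1 and 17.4 to 31.2 in EM3, log2 fold changes of 1.56 (SE 0.33) and 1.55 (SE 0.33). LPIN1, a phosphatase on the way to triglyceride, measured 10.7, 12.4 and 11.2 TPM in E, 14.4, 9.5 and 38.5 in EM1 and 9.72, 20.1 and 28.9 in EM3. These libraries overlapped those of E, and the gene did not pass.

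**Figure D3:**
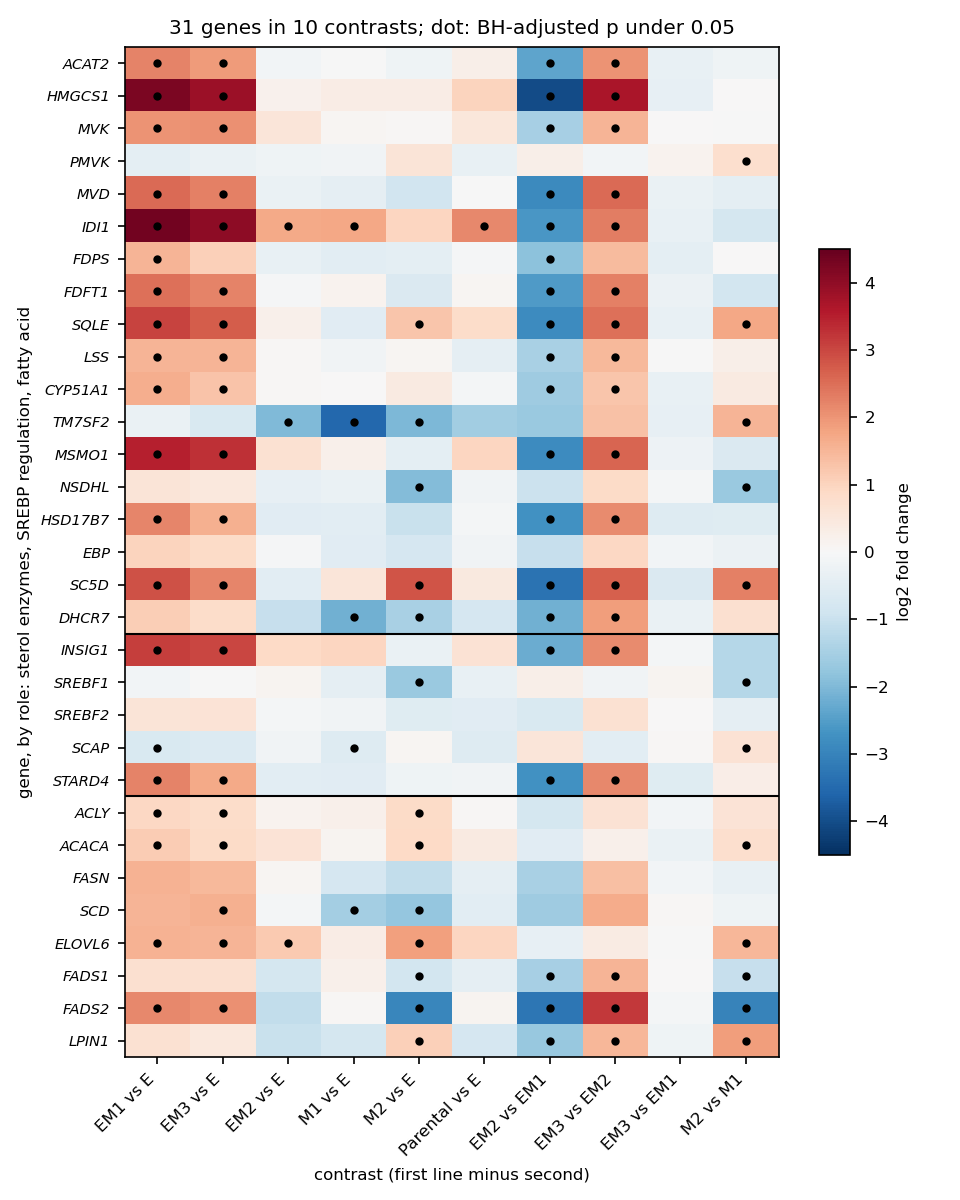
Log2 fold changes of the 31 genes in 10 contrasts between lines, first line minus second, from the fit of all 21 libraries. Colour gives the fold change and a dot marks a BH-adjusted p under 0.05. Against E, 13 sterol enzymes carry a dot in EM1 and 12 in EM3, and EM3 against EM1 carries no dot.

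In the means of both branches EM2 did not share the high levels of EM1 and EM3, but single genes differed from this. ACACA measured 29.7, 34.7 and 27 TPM in EM2, within the range of EM1 (25.5 to 61.8). ACLY (88.8 to 128 TPM), ELOVL6 (11.8 to 25.1) and FASN (166 to 187) were also above all libraries of E in EM2. For FASN this was seen on TPM, and on counts it did not pass (log2 fold change 0.09; edgeR, BH-adjusted p = 0.943). FADS1, FADS2 and LPIN1 were below all libraries of E. Against E, 2 of 18 sterol enzymes were called, IDI1 higher and TM7SF2 lower, and ELOVL6 was the 1 fatty acid enzyme called, higher by 1.18 (SE 0.33) on the log2 scale. Of all genes 13.9% were called, 6.95% higher and 6.95% lower. TM7SF2 measured 3.61, 3.85 and 3.93 TPM in EM2 and 10.1, 10.2 and 11.5 in E, with no overlap and a log2 fold change of -1.99 (SE 0.53). IDI1 and ELOVL6 were lost without E replicate 2, E replicate 3 or EM2 replicate 2, and TM7SF2 without EM2 replicate 1 or EM2 replicate 2. The fatty acid count was 4 without EM1 replicate 3 and 2 without M1 replicate 3. ELOVL6 was also lost with the set as a term (0.97, SE 0.37; edgeR, BH-adjusted p = 0.084) and on TPM (limma, BH-adjusted p = 0.0612). In the fit with the set term ACACA was called instead (1.00, SE 0.17; edgeR, BH-adjusted p = 6.99e-04; 0.121 without the term), and SC5D was called lower (-1.02, SE 0.28; edgeR, BH-adjusted p = 0.0191), beside 18.4% of all genes.

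Set against each other, the EM lines share the same mix of 2 long and 1 short library. EM2 was lower than EM1 in 14 of 18 sterol enzymes and 3 of 8 fatty acid and lipid enzymes (FADS1, FADS2 and LPIN1) and higher in none, beside 4.63% of all genes called lower, 3.5% higher and 8.14% in all. The largest differences were in HMGCS1 (log2 fold change -4.02, SE 0.55), SC5D (-3.32, SE 0.41) and FADS2 (-3.26, SE 0.57). INSIG1 (-2.22, SE 0.63) and STARD4 (-2.71, SE 0.55) were lower as well. The INSIG1 call (edgeR, BH-adjusted p = 0.0338) was lost with the replicate number as a block (0.0573), with only the compared lines (0.0956), in the long set alone (0.288) and on TPM (limma, 0.0705). It was also lost without EM1 replicate 1, EM1 replicate 3, EM2 replicate 1 or EM2 replicate 3 (up to 0.157 with edgeR). In the long set alone, with 2 libraries of each line, 9 of 18 and 3 of 8 were called. The share of all genes called in that set is not given here. With the library set as a term 17 of 18 and 6 of 8 were called, all lower. Calls rose over all genes too in that fit, to 17.2% (9.46% lower and 7.72% higher).

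EM3 was higher than EM2 in 13 of 18 sterol enzymes and the same 3 of 8 fatty acid and lipid enzymes and lower in none, beside 3.93% of all genes called higher, 2.81% lower and 6.74% in all. HMGCS1 (3.66, SE 0.54), FADS2 (3.17, SE 0.56) and SC5D (2.67, SE 0.40) again had the largest log2 fold changes. Same-numbered libraries of EM2 and EM3 deviated together. With the replicate number as a block FDPS (edgeR, BH-adjusted p = 0.0328), TM7SF2 (0.0343) and SCD (0.00903) were called too and INSIG1 was not (edgeR, BH-adjusted p = 0.0488 without the block and 0.0624 with it). INSIG1 was lost too on TPM (limma, BH-adjusted p = 0.0661), with only the compared lines (edgeR, BH-adjusted p = 0.0735), in the long set alone (0.296) and in 11 of the 21 fits that each left out 1 library. In the long set alone 8 of 18 and 3 of 8 were called, and the share of all genes called there is not given here.

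EM3 against EM1 called none of the 31 genes, beside 0.37% of all genes. None passed an unadjusted p under 0.05 with edgeR, and none was called by DESeq2, limma-voom or limma on TPM. The median log2 difference was -0.31 over sterol enzymes and -0.11 over fatty acid and lipid enzymes. HMGCS1 differed by -0.36 (SE 0.49) and FASN by -0.12 (SE 0.55), errors too wide to show that the levels are equal.

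Parental differed from E in 1 of the 31 genes, IDI1, beside 10.9% of all genes (5.93% higher and 5.02% lower). Leaving out EM1 replicate 3 gave a sterol count of 3, and leaving out EM1 replicate 2, M2 replicate 1, M2 replicate 3 or Parental replicate 2 gave 2. The fatty acid count of 0 (1 of 8 at an unadjusted p under 0.05 with edgeR, 1 called by DESeq2, 0 by limma-voom and 1 by limma on TPM) was 1 without M1 replicate 1 or M2 replicate 1. Replicate 3 of Parental was its highest library for 15 of 18 sterol enzymes, as in MSMO1 (46.6, 33.8 and 165 TPM), FDFT1 (93.7, 56.5 and 165) and MVD (18.7, 11.3 and 35.1). The share of all genes with replicate 3 highest in Parental was not taken.

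EM1 was higher than Parental in 13 of the 31 genes and EM3 in 14, 11 of them sterol enzymes in each, and neither was lower in any, beside 2.01% and 3.7% of all genes called (0.939% and 1.82% called higher). HMGCS1 had the largest log2 fold change in both, 3.23 (SE 0.53) in EM1 and 2.86 (SE 0.52) in EM3. EM2 differed from Parental in none, beside 5.5% of all genes and 2.32% called higher (edgeR; 2 of 18 sterol and 1 of 8 fatty acid enzymes at an unadjusted p under 0.05, and 0 called by DESeq2 or limma). Of the genes called against Parental, the share that was higher was 46.8% on counts and 66.9% on TPM in EM1, 42.3% and 56.8% in EM2, 49.2% and 76.5% in EM3, and 48.2% and 60.3% in M1.

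These counts rested on few libraries. For EM1 the count was 4 without EM1 replicate 3 or Parental replicate 2 and 7 without Parental replicate 1. For EM3 it was 3 without Parental replicate 2, 6 without Parental replicate 1, and 5 without EM3 replicate 2 or EM3 replicate 3. Fitted on the compared lines only, 4 genes were called in EM1 (HMGCS1, SQLE, CYP51A1 and SC5D) and 9 in EM3.

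M1 differed from E in single genes. Of the sterol enzymes IDI1 was higher and TM7SF2 and DHCR7 lower, and of the fatty acid and lipid enzymes SCD was lower. Of all genes 36.2% were called, a larger share than 3 of 18 or 1 of 8. TM7SF2 measured 2.11, 0.98 and 2 TPM in M1 and 10.1 to 11.5 in E, a log2 fold change of -3.54 (SE 0.57) (edgeR, BH-adjusted p = 9.2e-05). DHCR7 measured 19.1, 19.4 and 58.5 TPM in M1, replicate 3 being 3.04 times the mean of the others, and all 3 were below E (114 to 124), with a log2 fold change of -2.17 (SE 0.50). SCD measured 67.7, 41.9 and 159 TPM in M1 and 199 to 216 in E (log2 fold change -1.54, SE 0.52). The SCD call was lost without M1 replicate 1, M1 replicate 2 or each single library of E. SCAP was lower by a small margin (log2 fold change -0.58, SE 0.22; edgeR, BH-adjusted p = 0.0486), and this call was lost on TPM (-0.16; limma, BH-adjusted p = 0.456), with the set as a term (-0.32; edgeR, BH-adjusted p = 0.124) and in 16 of the 21 fits that each left out 1 library. ACACA did not pass (0.13, SE 0.26), but did with the set as a term (0.48, SE 0.17; edgeR, BH-adjusted p = 0.0328), where 38.7% of all genes were called.

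M2 differed from E in both directions. Of 18 sterol enzymes 2 were higher and 3 lower, and of 8 fatty acid and lipid enzymes 4 were higher and 3 lower. Of all genes 51.3% were called (24.6% higher and 26.8% lower), a larger share than 5 of 18 and a smaller one than 7 of 8. The median log2 fold change was -0.32 over sterol enzymes and 0.03 over fatty acid and lipid enzymes. With the set as a term the sterol median turned to 0.11, with 4 higher and 2 lower, and the fatty acid and lipid median was 0.42, with 4 higher and 1 lower, beside 55.8% of all genes called. CYP51A1 was among the higher there (0.50, SE 0.20; edgeR, BH-adjusted p = 0.0391) and was not called without the term (0.41, SE 0.21). Without EM1 replicate 3 the sterol count was 8.

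SC5D measured 71.8, 33.5 and 13.7 TPM in M2 and 3.4 to 4.38 in E, a log2 fold change of 2.84 (SE 0.40) (edgeR, BH-adjusted p = 1.11e-05). SQLE measured 59.5, 36.9 and 24.3 TPM and 11.4 to 13.8 in E, a log2 fold change of 1.23 (SE 0.27). Both were above E in all 3 libraries. NSDHL measured 19.8, 6.48 and 17.5 TPM in M2, below all 18 libraries of the other lines (40.6 to 108), with a log2 fold change of -1.94 (SE 0.36) against E. TM7SF2 measured 2.41, 1.88 and 4.3 TPM (log2 fold change -2.02, SE 0.53). DHCR7 measured 56, 43.6 and 46.2 TPM and 114 to 124 in E (log2 fold change -1.45, SE 0.49), a call that was lost without M2 replicate 2 and in the fit with the set term (-0.66, SE 0.33; edgeR, BH-adjusted p = 0.0986).

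Among the fatty acid and lipid enzymes of M2 the desaturases were lower. FADS2 measured 6.18, 5.9 and 7.19 TPM, below all other libraries (13.8 to 319), with a log2 fold change of -2.92 (SE 0.56) against E and -2.99 (SE 0.56) against M1. FADS1 measured 56.6, 57.1 and 41.6 TPM and 80 to 81.4 in E, and SCD 94.4, 79.7 and 63.4 and 199 to 216, log2 fold changes of -0.81 (SE 0.27) and -1.72 (SE 0.53). With the set as a term FADS1 and SCD did not pass (edgeR, BH-adjusted p = 0.108 and 0.0514), and FADS1 did not pass without M2 replicate 3. ELOVL6 measured 40.5, 24 and 16.8 TPM and 5.89 to 9.11 in E, a log2 fold change of 1.83 (SE 0.34). LPIN1 measured 28.8, 22.7 and 17.1 TPM and 10.7 to 12.4 in E, a log2 fold change of 1.08 (SE 0.40), lost without M2 replicate 1, M2 replicate 2 or each single library of E. ACLY and ACACA were higher by 0.87 (SE 0.26) and 0.89 (SE 0.26) on the log2 scale, and the call of ACLY was lost without M2 replicate 1.

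SREBF1 was lower in M2 than in E, at 10.6, 17.5 and 12.2 TPM and 34 to 39.1, with a log2 fold change of -1.68 (SE 0.49) (edgeR, BH-adjusted p = 0.00807). SREBF2, INSIG1, SCAP and STARD4 did not pass. PMVK measured 19.1, 17.4 and 23.2 TPM in M2, above all other libraries (9.32 to 13.3). It passed against M1 (log2 fold change 0.74, SE 0.24) and Parental (0.91, SE 0.25) and missed the threshold against E (0.59, SE 0.24; edgeR, BH-adjusted p = 0.0518), where it passed with the set as a term (0.85, SE 0.17; edgeR, BH-adjusted p = 4.45e-04).

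**Figure D4:**
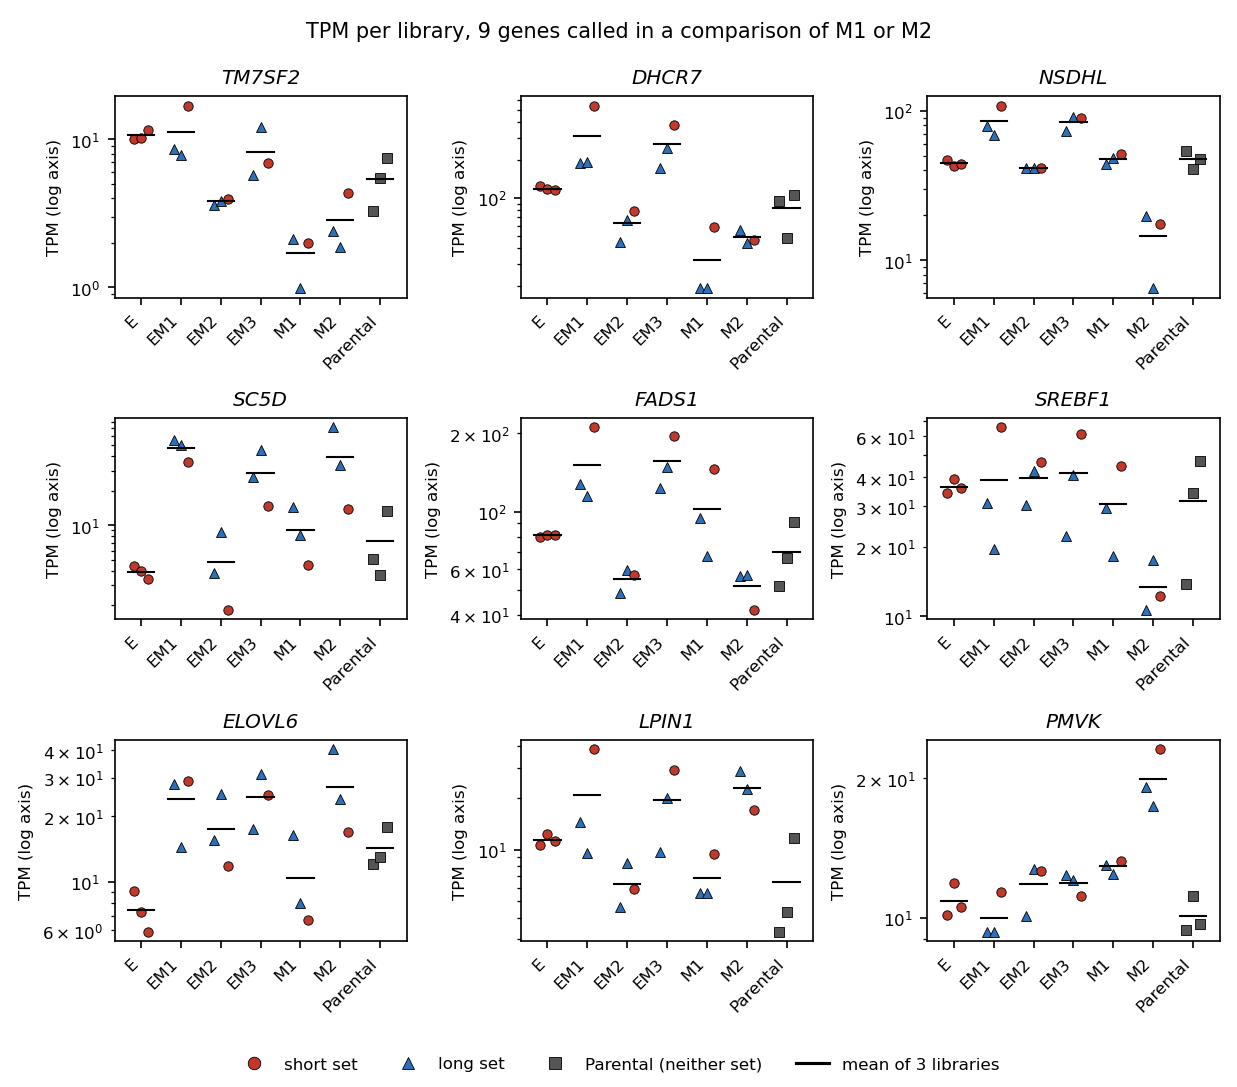
TPM (log axis) of 9 genes in each of the 21 libraries, by line. Points are libraries, coloured and shaped by library set, and bars are means of 3 libraries. NSDHL lies lowest and PMVK highest in all 3 libraries of M2, and TM7SF2 has its lowest mean in M1.

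M2 against M1 called 12 of the 31 genes, 8 higher and 4 lower, beside 41.2% of all genes (19% higher and 22.2% lower). SC5D (log2 fold change 2.28, SE 0.39), LPIN1 (1.86, SE 0.41) and SQLE (1.73, SE 0.28) were the largest higher in M2, and FADS2 and NSDHL (-1.66, SE 0.35) the largest lower. Of the sterol enzymes 4 were higher and 1 lower, and 3 in all were called without M1 replicate 1, M1 replicate 2 or M2 replicate 3. Against Parental, M2 had 6 higher and 5 lower of 31 (46% of all genes called, 21.3% higher and 24.7% lower) and M1 had 3 lower, TM7SF2, DHCR7 and SQLE (27.1%). The count of M2 was 7 without Parental replicate 2 and 6 without Parental replicate 3, and that of M1 was 1 without M1 replicate 2.

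Other genes of the pathway were read from a list of 26 genes that are not among the 31. In EM1 against E 7 were higher and 1 lower, in EM3 4 and 1, in EM2 3 and 1, in M1 6 and 5, in M2 8 and 7, and in Parental 1 and 0. Of all genes 17.9%, 17.3%, 13.9%, 36.2%, 51.3% and 10.9% were called in these comparisons in the same order. With the set as a term the count in EM3 was 8 higher and 2 lower, beside 20.2% of all genes. The 5 genes of SREBP processing and the 3 of the isoprenoid branch had no call in EM1, EM2, EM3 or Parental against E with edgeR. At an unadjusted p under 0.05 with edgeR there were 1 and 1 in EM1, 1 and 0 in EM2, 0 and 0 in EM3, and 1 and 0 in Parental. DESeq2 called 0 and 1, 1 and 0, 0 and 0, and 1 and 0, as did limma on TPM, and limma-voom called none.

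The 1 lower gene in EM1 was ABCG1, an exporter of cholesterol that is switched on by sterol-sensing nuclear receptors. It measured 0.87, 1.7 and 1.98 TPM in E and 0.03, 0.07 and 0.11 in EM1, from 141, 303 and 352 counts and 2, 5 and 6 counts. Its log2 fold change was -5.50 (SE 1.07) (edgeR, BH-adjusted p = 0.00162). In EM3 it stood at 0.03, 0.05 and 0.12 TPM, and all 6 libraries of EM1 and EM3 were below the 15 others (0.47 to 21.2). SOAT1, which stores cholesterol as ester, measured 12.3 to 13.6 TPM in E, 28.2 to 35.7 in EM1 and 30.5 to 35.6 in EM3, a log2 fold change of 1.29 (SE 0.24) in EM1. In M2 it reached a similar level, at 25.6 to 36.1 TPM.

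ACSS2, which makes acetyl-CoA from acetate, measured 34.9, 39.7 and 47.9 TPM in E and 123, 70.6 and 669 in EM1, with replicate 3 far above the others (log2 fold change 2.47, SE 0.75). ELOVL5, an elongase of polyunsaturated fatty acids, measured 29.1 to 31 TPM in E and 88 to 141 in EM1 (log2 fold change 1.62, SE 0.19). All other lines were above E in ELOVL5 too. They held 52.1 to 84.9 TPM in EM2, 103 to 114 in EM3, 75.9 to 104 in M1, 57.8 to 91.5 in M2 and 38.4 to 59.1 in Parental. HSD17B12 of fatty acid elongation (1.61, SE 0.19) and ACSL3, an acyl-CoA synthetase (1.22, SE 0.33), were higher too.

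In EM2 against EM1 3 genes of the wider list were higher and 8 lower, beside 3.5% and 4.63% of all genes. In EM3 against EM2 5 were higher and 3 lower, beside 3.93% and 2.81%. The 3 that were higher in EM2 in both were ABCG1, ABCA1 and MYLIP, named here after their values were seen. ABCA1 exports cholesterol and MYLIP marks lipoprotein receptors for breakdown, and all 3 are known targets of the sterol-sensing receptors. Other targets of these receptors were not gathered, and receptor activity was not tested. Of the 5 listed genes of sterol transport and storage, 3 were higher in EM2 than in EM1 and 1 was lower. Against EM1 the log2 fold changes of ABCG1, ABCA1 and MYLIP in EM2 were 4.81 (SE 1.05), 1.89 (SE 0.53) and 1.44 (SE 0.32). ABCA1 measured 2.05 to 2.26 TPM in EM2, 0.46 to 0.71 in EM1, 0.38 to 0.54 in EM3, 0.30 to 0.41 in E and 6.98 to 9.9 in M1. MYLIP measured 3.63 to 7.48 TPM in EM2, 1.6 to 2.5 in EM1, 2.27 to 3.11 in EM3 and 2.03 to 2.1 in E. The other lines held 4.3 to 7.54 TPM of MYLIP in M1, 2.91 to 3.71 in M2 and 2.23 to 7.45 in Parental.

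In M2 against E, ABCA1 was higher (log2 fold change 2.52, SE 0.54), at 0.59, 5.62 and 1.57 TPM beside 0.30 to 0.41, as was the malic enzyme ME1 (1.67, SE 0.21). GGPS1, which makes geranylgeranyl diphosphate, measured 25.7, 33.9 and 21.1 TPM in M2 and 73.1 to 80.8 in E (log2 fold change -1.89, SE 0.20). TECR, a reductase of fatty acid elongation (-2.26, SE 0.33), ACACB, the carboxylase at the mitochondrion (-2.39, SE 0.31), and ACSS2 (-1.80, SE 0.73) were lower.

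Many of these genes differed between the library sets with the line held constant. Over the 18 libraries of the 6 named lines, the short set was higher than the long in 9 of 18 sterol enzymes and lower in 1, and higher in 6 of 8 fatty acid and lipid enzymes and 3 of 5 genes of regulation and transport. The set term was called in 47.5% of all genes tested (24.9% higher and 22.7% lower). The largest log2 differences were in FASN (1.27, SE 0.21), FADS2 (1.21, SE 0.19), SCD (1.15, SE 0.20), DHCR7 (1.08, SE 0.19) and TM7SF2 (1.07, SE 0.23). SREBF1 (1.01, SE 0.18) and SREBF2 (0.88, SE 0.12) were higher in the short set too. HMGCS1 (0.06, SE 0.33), IDI1 (-0.37, SE 0.26), SQLE (0.01, SE 0.17) and MSMO1 (-0.50, SE 0.33) were not called, and SC5D was lower (-0.72, SE 0.17). Outside E the short set is the same libraries as replicate 3, so the set and that replicate cannot be told apart.

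**Figure D5:**
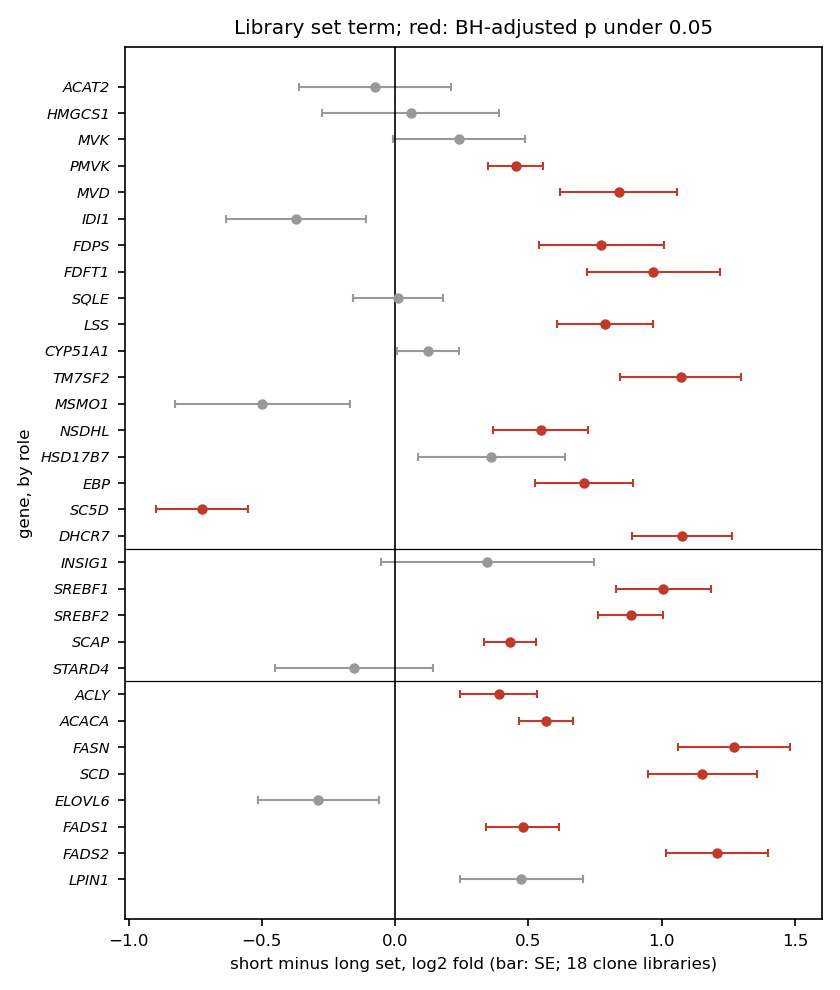
Log2 difference of the short from the long library set for each of the 31 genes, with the line held constant, over 18 libraries. Points are estimates, bars are standard errors and red marks a BH-adjusted p under 0.05. Of the 19 red points 18 lie to the right of 0, and SC5D lies to the left.

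In EM1 the TPM of replicate 3 was 3.75 times the mean of replicates 1 and 2 for FASN, 3.57 times for FDFT1, 3.53 times for FDPS and 3.27 times for MVD. In EM3 the same ratios were 2, 2.02, 1.76 and 1.54, and in EM2 1.1, 1.17, 0.988 and 1.09. In M1 they were 1.52, 2.07, 1.28 and 1.43, and in M2 1.16, 0.796, 0.593 and 0.875. These ratios differed between lines, while the set term fits the same difference in all of them. Calls against E from the fit with the set term rest on that assumption. For IDI1, MSMO1 and SC5D replicate 3 was below the mean of the others in all 5 lines that have both sets, with ratios of 0.192 to 0.98.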

How the data were processed

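Poly(A) RNA of 21 libraries was read from a single end. Per the submitters' processing notes, bcl2fastq 2.20.0.422, cutadapt 2.4, STAR 2.7.2b and RSEM 1.3.2 were used with hg38. The annotation release and strand setting are not given in the sources used here. Per the file headers, the deposited values are expected counts, TPM and effective lengths per gene, and 7.44 to 8.61% of the expected counts in a library were not whole.

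Expected counts were rounded and tested with edgeR 4.0.16 (R 4.3.3; quasi-likelihood F-test, robust, TMM factors of 0.92 to 1.13, low-count filter by line). All libraries entered 1 fit with a mean for each line, which leaves 14 residual degrees of freedom and 18632 genes after the filter. Calls rest on BH-adjusted p under 0.05 over all genes of a contrast, in 15 contrasts and 1 test of any line. The fit with the library set used the 18 clone libraries (18491 genes, 11 residual degrees of freedom). Standard errors are the fold change over the square root of F. The test was checked on simulated data. TPM were averaged as deposited by the authors.

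The 31 genes and all lists were chosen with earlier results of these data known. All 31 are named. Genes of the wider list are named where called in EM1 or M2 against E with libraries that do not overlap, at most the 6 largest changes in each. MYLIP lies outside this rule. It was named, with ABCG1 and ABCA1, in the comparisons of EM2 with EM1 and EM3 after the values were seen. Alternatives were other filters, DESeq2 1.42.0 size factors or Wald test, limma 3.58.1 (voom, or trend on log2(TPM + 1) with a mean TPM of at least 1), a log2 fold of at least 1, a fit of only the lines compared, the replicate number as a block, a term for the library set or each set alone, and each library left out.

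The replicate numbers in the labels were checked for pairing. Of 63 same-number pairs 33 correlated above 0.1 (median 0.11), so they were not taken as pairs, except in EM3 against EM2, where all 3 did (0.35, 0.54 and 0.64). Gene positions are those of GENCODE v29 on GRCh38. Tables were read with Python 3.11.15 and pandas 2.3.3.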

Additional observations from a re-analysis of the deposited data

How the results depend on the processing

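No called gene changed direction: of the 151 calls over the 31 genes and 15 contrasts, 52 held in every alternative tried and 0 reversed. Counts that moved by more than 1.5 times follow, by alternative. The share of all genes called in an alternative is given only where stated above. Without the low-count filter there were fatty acid counts of 4 in EM2 against E, 3 in M1 against E, 2 in Parental against E, 5 in EM2 against EM1, 5 in EM3 against EM2, and sterol counts of 10 in M2 against E, 5 in Parental against E, and counts over all 31 genes of 25 in EM1 against Parental, 1 in EM2 against Parental, 24 in EM3 against Parental. The DESeq2 Wald test gave fatty acid counts of 2 in EM2 against E, 1 in Parental against E, and sterol counts of 3 in Parental against E, and counts over all 31 genes of 22 in EM1 against Parental. With limma-voom there were fatty acid counts of 2 in EM2 against E, and sterol counts of 2 in Parental against E. On TPM limma gave fatty acid counts of 7 in EM1 against E, 2 in M1 against E, 1 in Parental against E, and sterol counts of 2 in Parental against E. Tested against a log2 fold of 1 there were fatty acid counts of 0 in EM1 against E, 0 in EM2 against E, 0 in EM3 against E, 0 in M1 against E, 2 in M2 against E, 1 in EM2 against EM1, 1 in EM3 against EM2, 2 in M2 against M1, and sterol counts of 0 in EM2 against E, 6 in EM3 against E, 3 in M2 against E, 0 in Parental against E, 8 in EM2 against EM1, 4 in EM3 against EM2, 3 in M2 against M1, and counts over all 31 genes of 3 in EM1 against Parental, 1 in EM3 against Parental, 0 in M1 against Parental, 4 in M2 against Parental. The compared lines alone gave fatty acid counts of 5 in EM2 against E, 2 in M1 against E, 2 in Parental against E, and sterol counts of 4 in Parental against E, 9 in EM2 against EM1, 3 in M2 against M1, and counts over all 31 genes of 4 in EM1 against Parental, 9 in EM3 against Parental, 6 in M2 against Parental. With the replicate number as a block there were fatty acid counts of 7 in EM1 against E, 4 in EM2 against E, 1 in Parental against E, and sterol counts of 9 in M2 against E, 3 in Parental against E, and counts over all 31 genes of 20 in EM1 against Parental, 1 in EM2 against Parental. The library set as a term gave fatty acid counts of 7 in EM1 against E, 2 in M1 against E, 6 in EM2 against EM1, 5 in EM3 against EM2. In the short set alone, where each line but E has 1 library that is assumed to vary as E does, there were fatty acid counts of 8 in EM1 against E, 7 in EM2 against E, 8 in EM3 against E, 6 in M1 against E, and sterol counts of 8 in EM2 against E, 7 in M1 against E, 14 in M2 against E. The long set alone gave sterol counts of 9 in EM2 against EM1, 8 in EM3 against EM2. With each library left out in turn, the sterol counts were 11 to 14 in EM1 against E, 0 to 2 in EM2 against E, 10 to 14 in EM3 against E, 3 to 3 in M1 against E, 5 to 8 in M2 against E, 1 to 3 in Parental against E, 10 to 16 in EM2 against EM1, 0 to 0 in EM3 against EM1, 9 to 14 in EM3 against EM2, 3 to 6 in M2 against M1, 17 to 18 in any line. The counts of fatty acid enzymes were 2 to 6 in EM1 against E, 0 to 4 in EM2 against E, 1 to 6 in EM3 against E, 0 to 1 in M1 against E, 5 to 8 in M2 against E, 0 to 1 in Parental against E, 2 to 4 in EM2 against EM1, 0 to 0 in EM3 against EM1, 2 to 4 in EM3 against EM2, 4 to 6 in M2 against M1, 8 to 8 in any line. The counts over all 31 genes were 4 to 17 in EM1 against Parental, 0 to 0 in EM2 against Parental, 3 to 21 in EM3 against Parental, 1 to 4 in M1 against Parental, 6 to 14 in M2 against Parental. With the block the counts of regulation and transport genes were 2 in M2 against E, 1 in Parental against E, 1 in EM2 against EM1 and 1 in EM3 against EM2, where they were 1, 0, 2 and 2 without it. Over the wider list the block gave 9 in EM3 against E and 4 in Parental against E, where there were 5 and 1. Same-number pairs had a median correlation of 0.11, and for 11 of the 21 libraries the best match was the one of their own number. The cause of these differences was not tested. The fits with the library set were not run for Parental or for the test of any line, since Parental lies in neither set. Depth limits the lowest gene named: ABCG1 had 1 to 16 counts in the libraries of EM1 and EM3.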
